A study of Mus musculus with 34 samples.

Results

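The genes described here write, erase or read histone marks or remodel nucleosomes: the lysine acetyltransferases (Kat genes with Ep300 and Crebbp), histone deacetylases (Hdac), lysine demethylases (Kdm), SET-domain methyltransferases (Setd), bromodomain genes (Brd) and SMARC genes, which include subunits of the SWI/SNF complex. They were matched by gene symbol alone, with a rule set when earlier results of these data were known, and 67 of the 23812 gene rows of the RNA table matched. The series compared B cells of the mouse spleen, from C56BL/6J mice aged 6 to 8 weeks, after activation with the bacterial product lipopolysaccharide (LPS, 10 µg per ml) with resting B cells. LPS acts on B cells through a Toll-like receptor, and the activated cells were taken after 72 h. All cells were of the CD43-negative fraction, a fraction set by CD43, which is found on the surface of few resting B cells. RNA was sequenced from 2 resting and 2 activated samples, and open chromatin (FAIRE), enhancer activity in a reporter plasmid (STARR), the histone marks H3K27ac and H3K4me3 and chromatin contacts (Hi-C) were mapped in activated cells. The resting samples' culture fields repeat the LPS treatment, so how the resting cells were handled is not settled by the labels, and the groups rest on titles, source names and the series design.

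Acetyltransferases place acetyl groups on histone tails and deacetylases remove them, and bromodomain proteins bind the acetylated tails. Methyltransferases and demethylases act in the same opposed way on lysine methylation, where the residue decides the outcome: methylation of H3K4 marks promoters and enhancers, H3K36 methylation marks transcribed gene bodies, and H3K27 and H3K9 methylation mark silenced chromatin. SWI/SNF complexes use ATP to move or evict nucleosomes and are built from alternative, paralogous subunits. In B cells these enzymes take part in the change from a quiescent cell to a dividing cell and then to an antibody-secreting cell.

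The promoters of the alternative SWI/SNF subunits and of the paired acetyltransferases Ep300 and Crebbp are shown first, because the results on paralogs below turn on these pairs. The 150 bases before each start site, 5′ to 3′ on the gene's strand, come from RefSeq (GRCm38.p6) and were matched by symbol, whereas the peaks and gene spans below are on the older build mm9. Capitals mark the GC box GGGCGG, the ETS core CCGGAAG or the CCAAT box CCAAT, on either strand.
Smarca2 promoter, chr19:26605010-26605159 (plus strand): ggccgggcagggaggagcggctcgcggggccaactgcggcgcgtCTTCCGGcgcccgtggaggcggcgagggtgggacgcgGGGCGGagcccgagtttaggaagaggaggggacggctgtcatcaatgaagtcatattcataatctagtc
Smarca4 promoter, chr9:21616019-21616168 (plus strand): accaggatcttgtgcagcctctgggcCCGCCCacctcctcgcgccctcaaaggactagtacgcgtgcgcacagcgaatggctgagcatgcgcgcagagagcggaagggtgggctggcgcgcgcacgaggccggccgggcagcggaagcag
Smarcc1 promoter, chr9:110131874-110132023 (plus strand): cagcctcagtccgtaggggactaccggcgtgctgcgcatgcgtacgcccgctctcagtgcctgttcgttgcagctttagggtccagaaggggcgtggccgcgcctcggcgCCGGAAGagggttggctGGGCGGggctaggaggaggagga
Smarcc2 promoter, chr10:128459086-128459235 (plus strand): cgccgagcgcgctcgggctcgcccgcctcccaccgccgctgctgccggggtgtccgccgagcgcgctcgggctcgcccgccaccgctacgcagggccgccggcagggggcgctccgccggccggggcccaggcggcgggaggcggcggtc
Ep300 promoter, chr15:81586064-81586213 (plus strand): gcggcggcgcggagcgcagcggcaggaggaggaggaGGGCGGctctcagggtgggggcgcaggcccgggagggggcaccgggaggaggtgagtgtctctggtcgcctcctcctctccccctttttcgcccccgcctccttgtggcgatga
Crebbp promoter, chr16:4213405-4213554 (minus strand): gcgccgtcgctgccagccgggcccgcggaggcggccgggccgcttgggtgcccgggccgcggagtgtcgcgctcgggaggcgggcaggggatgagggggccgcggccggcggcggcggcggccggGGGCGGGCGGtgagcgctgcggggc
Smarca2 and Smarcc1 each held a GC box and an ETS core in this window, Smarca4 and Ep300 held a GC box, Crebbp held 2 overlapping GC boxes, and Smarcc2 held none of the 3 motifs. In activated cells an H3K4me3 peak lay within 1 kb of the annotated start of all of these genes, and at Smarca2, Smarca4 and Ep300 a STARR peak also lay within that distance. A promoter entry was found for 53 of the 67 members, 1 of them by an older symbol, with 74 start sites in all. Over the 250 bases before each start, the GC box was present in 60.8% of the members' promoters and 32.7% of all 32851 promoters in the table. For the ETS core the shares were 12.2% and 6.91%, and for the CCAAT box 35.1% and 33.8%. The members' promoters were also richer in CpG, with a median of 20 CpG against 6 over all promoters, and the part of base composition in the motif shares was not tested. A motif match describes letters and does not show that a factor binds.

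RNA levels are given as FPKM, a count of fragments scaled by transcript length and library size, and differences were tested with limma on log2(FPKM + 1), with a call at a Benjamini-Hochberg adjusted p under 0.05. FPKM summed to 244602 and 287884 in the resting and 285068 and 285129 in the activated samples, and replicates correlated at a Pearson r of 0.981 and 0.974, against 0.744 to 0.790 between groups. Read totals are unknown, but the steps between low values show that 1 read was worth 1.6 times as much FPKM in activated replicate 1 as in activated replicate 2. B cell markers were high in every sample, with summed FPKM of 7663 and 8468 in resting and 3412 and 4362 in activated samples, and 5 of the 6 fell. The groups also differed in markers of other cell types. The 8 red pulp macrophage markers all fell, from sums of 468 and 509 FPKM in resting samples to 0.457 and 0.951 in activated ones, where C1qa and C1qb were listed at 0. Erythroid markers summed to 411 and 2439 in the 2 resting samples and to 4.53 and 12.1 in the activated, myeloid markers to 65.7 and 397 against 2.64 and 9.02, and T cell markers to 9.94 and 14.9 against at most 0.0337. The resting T cell sums came mainly from Cd4 (5.48 and 5.01 FPKM) and Cd8a (4.21 and 6.01). Cd3d, Cd3e and Cd3g lay between 0.0491 and 0.135 FPKM in resting replicate 1 and at 1.05 or more in resting replicate 2. These Cd3 genes did not pass the filter on low values and were not tested. Markers of dividing cells rose in sum from 18.8 and 22.2 to 260 and 448, and those of plasma cells from 131 and 181 to 1792 and 2027. Of the 5 plasma cell markers 4 were called higher. Sdc1 was not, at 3.46 and 3.76 FPKM in resting and 2.16 and 5.17 in activated samples. Apart from the dendritic ones, all these sums move with the comparison, and their part in the members' differences was not tested. In bulk RNA, fewer cells of a type and less RNA per cell cannot be told apart. Whether the replicates stem from separate animals or cultures is not given in the labels, so a p-value here reflects no more than the spread of these 4 samples, and that spread may be technical.

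Of the 64 members that passed the filter of 1 FPKM in at least 2 samples, 26 were called, which is 40.6%, against 54.4% of all 10863 tested genes. By direction, 8 members (12.5%) were higher in activated cells, where 28.2% of all tested genes were higher, and 18 (28.1%) were lower, where 26.2% of all tested genes were lower. The members' median difference was -0.10 on the log2 scale against 0.03 over all tested genes, and their median absolute difference was 0.37 against 0.57. Called changes of at least 2-fold were seen in 2 members upward and 6 downward, while 14% of all tested genes rose and 12.1% fell by that much. Values of the 2 groups did not overlap in 52 of the 64 members (81.2%) and in 80.6% of all tested genes. The count of calls depended on having both resting samples, among the members and among all tested genes alike. The members' median difference was -0.06 without resting replicate 1, against 0.05 over all tested genes. It was -0.09 against 0.13 without resting replicate 2, the library with the higher erythroid and myeloid sums. Without activated replicate 1 the called members were split nearly evenly by direction, and the members' median difference was -0.09 against 0.01 over all tested genes. Scaling to equal FPKM sums gave 6 higher and 20 lower members, and 2781 higher and 3229 lower among all tested genes. Of the 26, 10 were called in every one of the 4 fits that left out 1 sample. These were Hdac10, Kdm6b, Kdm2a, Smarca2, Kat6a, Setd1b, Kdm3b and Crebbp, all lower in activated cells, and Setd8 and Smarcc1, both higher.

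**Figure D1:**
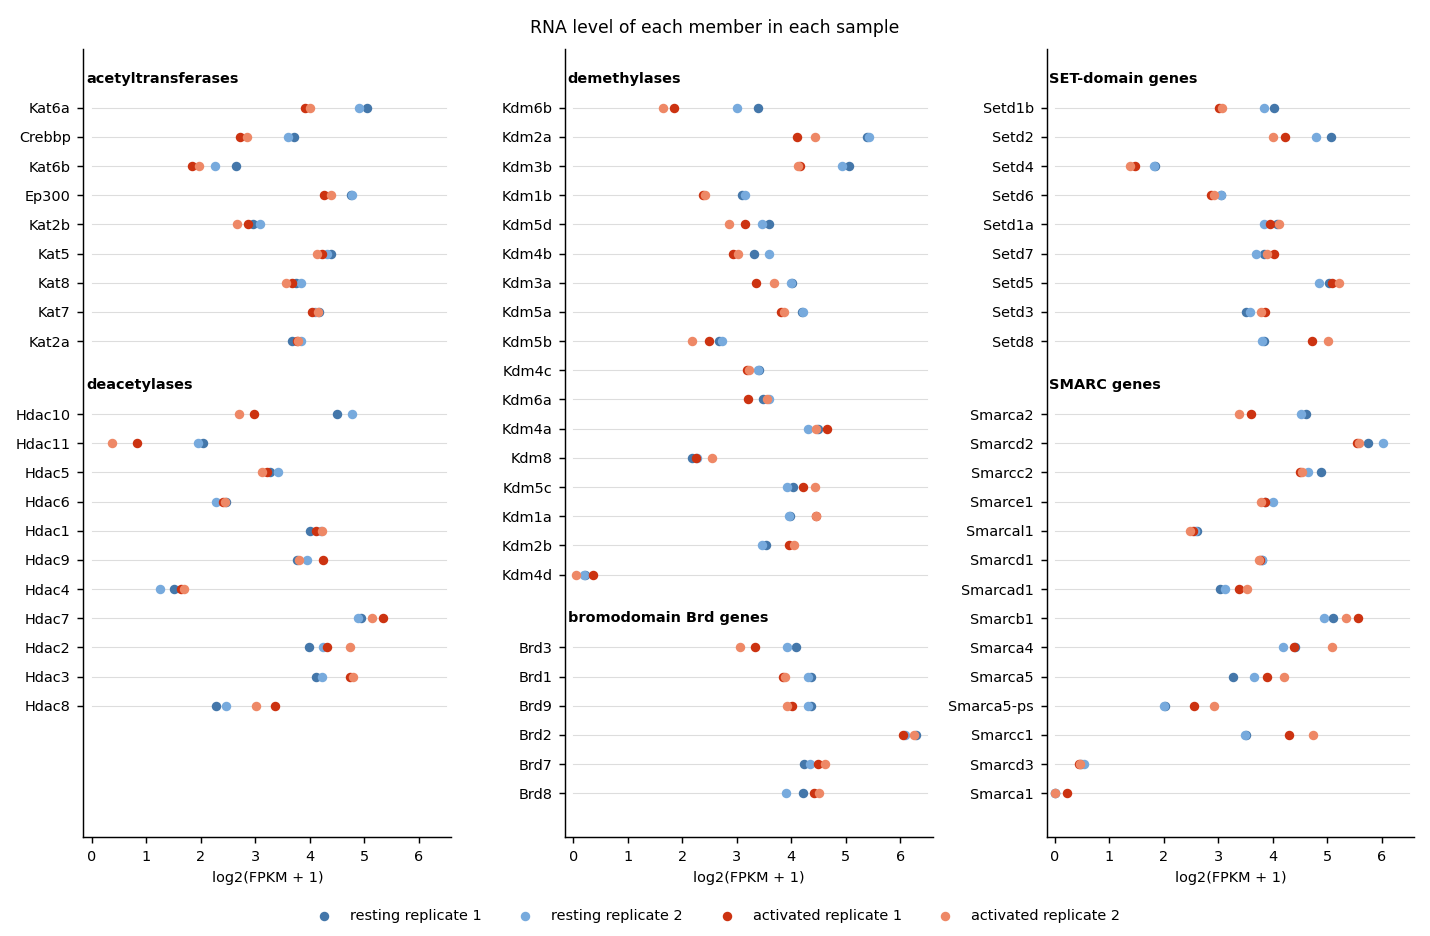
RNA level of 66 of the members as log2(FPKM + 1) on the horizontal axis, with 1 point for each of the 4 samples, grouped by class and ordered by difference. Brd2 lies farthest to the right in all samples, and the activated points lie clearly left of the resting ones for Hdac10, Kdm6b and Kat6a.

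The 3 members that were not tested, Smarcd3, Kdm4d and Smarca1, did not reach 1 FPKM in any sample. Brd2, a BET reader of acetylated histones, was the most abundant member in both groups, at 76.9 and 67.1 FPKM in resting and 65.0 and 74.9 in activated cells. The SWI/SNF subunit Smarcd2 came next in both groups. Activation moved several genes far in this order of mean level: Kdm2a went from 3rd to 19th, Kat6a from 6th to 30th and Hdac10 from 13th to 51st, while Setd8 went from 35th to 7th and Smarcc1 from 45th to 13th.

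Among the acetyltransferases 4 of 9 fell, none rose and 5 did not pass the test. Kat6a (MOZ), a MYST-family acetyltransferase that acts on H3, was measured at 32.4 and 28.9 FPKM in resting and at 14.0 and 15.03 in activated cells. It fell by 1.03 on the log2 scale (SE 0.153, limma adjusted p = 0.0019). Crebbp (CBP), a co-activator that acetylates H3K27 at enhancers, stood at 12.1 and 11.1 FPKM in resting and 5.61 and 6.26 in activated cells. It fell by 0.86 (SE 0.149, adjusted p = 0.00337, limma). Its paralog Ep300 (p300) had 26.2 and 26.5 FPKM in resting and 18.3 and 20.1 in activated cells and fell by 0.44 (SE 0.151, limma adjusted p = 0.0446). In all 3 genes both resting values lay above both activated ones, but the call for Ep300 was near the threshold and was kept, of the 4 fits that left out a sample, only in the one without activated replicate 2. Kat6b, the close relative of Kat6a, fell by 0.55 from a low level (limma adjusted p = 0.0449), and was called in none of those 4 fits. Kat2a and Kat2b (GCN5 and PCAF), the acetyltransferases of the SAGA and ATAC co-activator complexes, differed by 0.02 and -0.26, and Kat5 (TIP60), Kat7 (HBO1) and Kat8 (MOF), the catalytic subunits of other MYST complexes, by -0.03 to -0.18. None of these 5 passed.

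Of the 9 SET-domain genes 1 rose and 2 fell. Setd8, which places the H4K20 monomethyl mark in the cell division cycle, rose from 13.4 and 13.0 FPKM in resting to 25.4 and 31.2 in activated cells, by 1.04 on the log2 scale (SE 0.163, limma adjusted p = 0.0023). Markers of dividing cells rose in the same samples, as given above. Setd1b, a catalytic subunit of an H3K4 methyltransferase complex, had 15.2 and 13.4 FPKM in resting and 7.05 and 7.44 in activated cells and fell by 0.89 (adjusted p = 0.00295, limma). Setd2, which trimethylates H3K36 behind elongating polymerase, had 32.4 and 26.9 FPKM in resting and 17.8 and 14.98 in activated cells and fell by 0.82 (adjusted p = 0.00815, limma). The call for Setd2 was lost without resting replicate 1. The paralog of Setd1b, Setd1a, stood at 16.0 and 13.3 FPKM in resting and 14.5 and 16.4 in activated cells, with overlapping groups (limma adjusted p = 0.713).

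Of the 11 deacetylases 2 rose, 2 fell and 7 did not pass. Both rises were among the 4 class I enzymes, the nuclear deacetylases. Hdac8 rose from 3.89 and 4.51 FPKM to 9.30 and 7.06, by 0.81 (SE 0.182, limma adjusted p = 0.00968). Hdac3, the catalytic subunit of the NCoR and SMRT co-repressor complexes, rose from 16.3 and 17.7 FPKM to 25.9 and 26.6, by 0.60 (SE 0.149, limma adjusted p = 0.0146). For Hdac8 the call was lost without resting replicate 1, and for Hdac3 without either resting replicate. Hdac1 and Hdac2, which share the SIN3, NuRD and CoREST complexes, differed by 0.06 and 0.40 and did not pass the test, although Hdac2 was called without activated replicate 1. None of the 4 class IIa enzymes passed, with differences from -0.17 (Hdac5) to 0.33 (Hdac7). The lowest difference on the log2(FPKM + 1) scale was that of the class IIb enzyme Hdac10, which deacetylates a polyamine in the cytoplasm. Hdac10 stood at 21.7 and 26.3 FPKM in resting and 6.90 and 5.56 in activated cells, a fall by 1.79 on the log2 scale (SE 0.174, limma adjusted p = 0.000352). Hdac11, the only class IV enzyme, had 3.12 and 2.85 FPKM in resting and 0.781 and 0.297 in activated cells and fell by 1.39 (SE 0.194, limma adjusted p = 0.00145). With a pseudocount of 0.1 this order turned, to a fall by 2.38 for Hdac11 and 1.93 for Hdac10. The other class IIb enzyme, Hdac6, which acts on tubulin, differed by 0.05 with overlapping groups (limma adjusted p = 0.802). Without either resting replicate Hdac11 did not pass the filter on low values, so those fits give it no value.

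Of the 16 tested demethylases 7 fell, 2 rose and 7 did not pass. The share of falls was 43.8%, against 26.2% of all tested genes and 44.4% of the 9 acetyltransferases. Both class shares rest on few genes, and several of these calls were lost when a sample was left out. Kdm6b (JMJD3), which removes H3K27 methylation, had 9.45 and 7.06 FPKM in resting and 2.58 and 2.12 in activated cells. It fell by 1.46 (SE 0.191, limma adjusted p = 0.00116), while its paralog Kdm6a (UTX), encoded on the X chromosome, stood at 10.3 and 11.01 FPKM against 8.22 and 10.7 and overlapped between groups (limma adjusted p = 0.455). Kdm2a, an H3K36 demethylase that binds CpG islands, was at 40.9 and 42.0 FPKM in resting and 16.3 and 20.6 in activated cells and fell by 1.13 (SE 0.174, limma adjusted p = 0.00212). Its paralog Kdm2b, which also brings a Polycomb complex to CpG islands, rose from 10.7 and 10.0 FPKM to 14.5 and 15.5, by 0.50 (SE 0.144, limma adjusted p = 0.0248), a call lost without either resting replicate or activated replicate 2. The members of the LSD family also moved in opposite directions. Kdm1a (LSD1), which removes H3K4 mono- and dimethylation, rose from 14.7 FPKM in both resting samples to 20.9 and 21.0, by 0.49 (SE 0.142, limma adjusted p = 0.0257). Kdm1b (LSD2) fell from 7.58 and 7.87 FPKM to 4.24 and 4.37, by 0.72 (SE 0.148, limma adjusted p = 0.00696). The span of Kdm1b overlaps that of Dek, and without strand the reads of overlapping genes cannot be told apart. For both LSD genes the call was lost without either resting replicate, and under scaling to equal FPKM sums the calls of Kdm1a and Kdm2b were lost. Kdm3b, an H3K9 demethylase, fell from 32.5 and 29.5 FPKM to 16.8 and 16.4, by 0.86 (limma adjusted p = 0.00357), and Kdm3a, Kdm4b and the Y-linked Kdm5d fell by 0.48 to 0.51. These last 3 calls were lost without either resting replicate, and that of Kdm4b in all 4 fits that left out a sample. The H3K4 demethylases Kdm5a and Kdm5c differed by -0.37 and 0.36 and did not pass the test (limma adjusted p = 0.0621 and 0.0929). The span of Kdm5a overlaps that of Ccdc77, with the same limit. Kdm5a was called under both median-ratio scaling and scaling to equal sums, and Kdm5c without activated replicate 1.

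**Figure D2:**
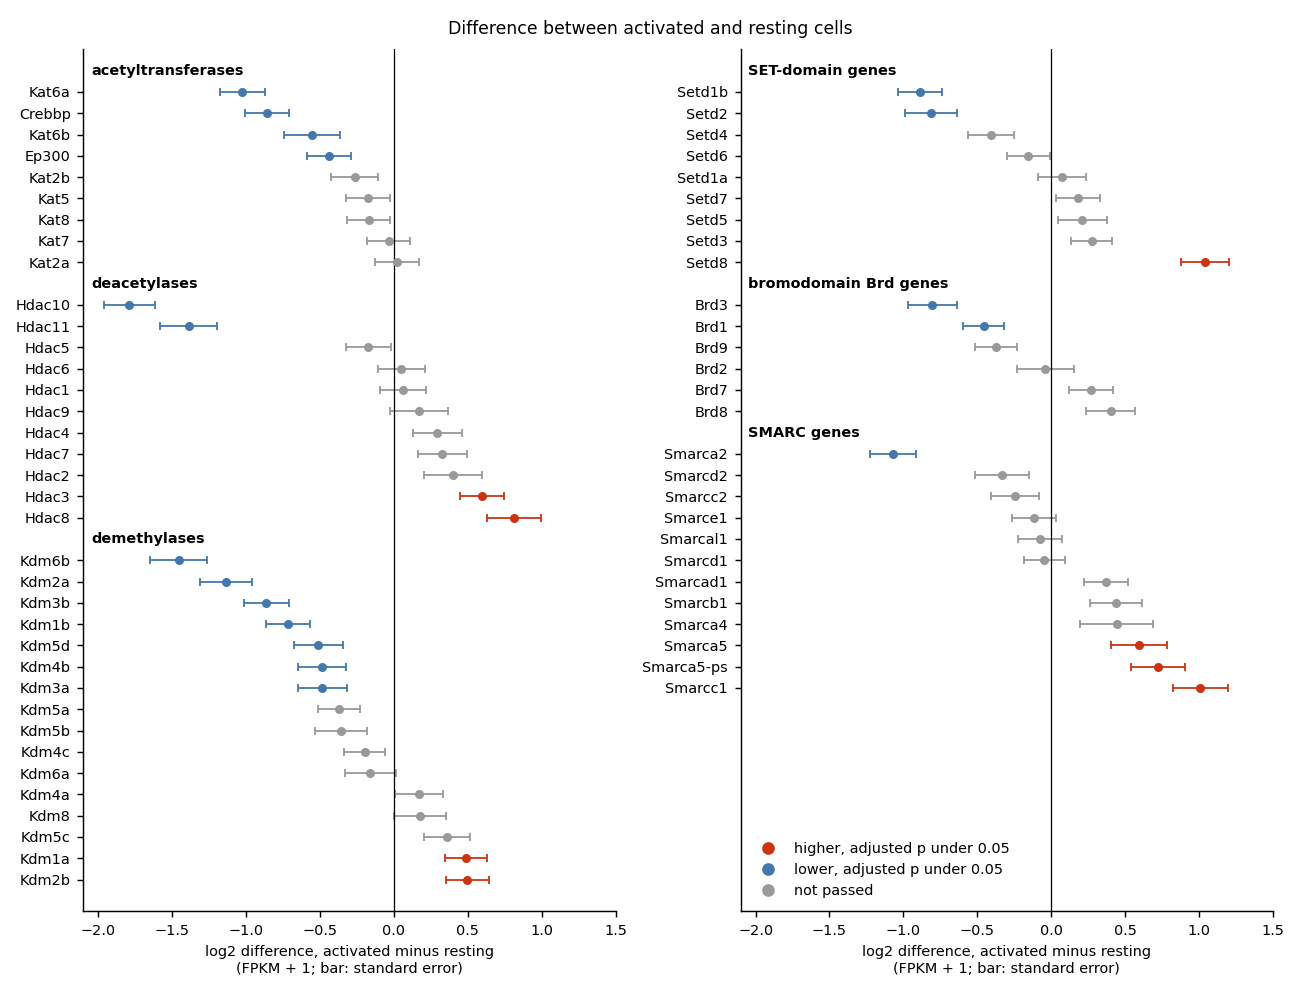
Difference between activated and resting cells for 63 of the tested members, as the log2 difference of FPKM + 1 with its standard error from limma (n = 2 samples in each group). Red points rose, blue points fell and grey points did not pass an adjusted p of 0.05, and Hdac10 lies lowest at -1.79 and Setd8 highest at 1.04.

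Of the 7 bromodomain Brd genes 2 fell and none rose. Brd3, a BET protein, had 16.1 and 14.1 FPKM in resting and 9.13 and 7.34 in activated cells and fell by 0.81 (SE 0.166, limma adjusted p = 0.00699), a call lost without resting replicate 1. Brd2, also a BET protein, differed by -0.04 with overlapping groups (limma adjusted p = 0.868). Brd1, a scaffold of MYST acetyltransferase complexes, fell from 19.5 and 18.7 FPKM to 13.5 and 13.8, by 0.46 (limma adjusted p = 0.0319), and was called in none of the fits that left out a sample. Brd7 and Brd9, subunits of different SWI/SNF assemblies, had differences of 0.27 and -0.37, neither of which passed, although Brd9 was called under scaling to equal sums.

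Among the 12 tested SMARC genes 3 rose and 1 fell. Smarca2 (BRM), an ATPase of the SWI/SNF complex, was at 23.4 and 21.8 FPKM in resting and 11.1 and 9.47 in activated cells and fell by 1.07 (SE 0.154, limma adjusted p = 0.00161). Its span overlaps that of 4931403E22Rik, and without strand the reads of overlapping genes cannot be told apart. The alternative ATPase Smarca4 (BRG1) stood at 20.2 and 17.3 FPKM in resting and 20.03 and 33.1 in activated cells. The groups overlapped and the difference of 0.44 did not pass (limma adjusted p = 0.169), although without activated replicate 1 the gene was called. Smarcc1 (BAF155), a scaffold subunit, rose from 10.4 and 10.3 FPKM to 18.6 and 25.7, by 1.01 (SE 0.186, limma adjusted p = 0.00445), whereas its paralog Smarcc2 (BAF170) was at 28.6 and 23.98 against 21.7 and 22.2 and did not pass (limma adjusted p = 0.24). Smarca5 (SNF2H), the ATPase of ISWI remodellers, rose from 8.65 and 11.5 FPKM to 14.0 and 17.4, by 0.59 (limma adjusted p = 0.037), a call lost without resting replicate 1 or activated replicate 2. The pseudogene row Smarca5-ps rose by 0.72 (limma adjusted p = 0.0154), a call lost without either resting replicate, but it can share reads with Smarca5, so the split between these rows is uncertain. Of the other core subunits, Smarcb1, Smarcd1, Smarcd2 and Smarce1 did not pass, with differences from -0.33 (Smarcd2) to 0.44 (Smarcb1).

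The paralogs were compared within each sample as the log2 ratio of FPKM + 1, over 10 pairs. In all 10 the 2 resting ratios lay apart from the 2 activated ratios, with an exact two-sided permutation p of 0.333, the smallest that 2 against 2 samples allow, so no ratio could pass a threshold of 0.05 in any case. Single genes did not overlap between groups in 80.6% of cases, and the share over other gene pairs was not computed. The largest shift was in the SWI/SNF ATPases: Smarca4 to Smarca2 stood at -0.20 and -0.32 in resting and 0.80 and 1.70 in activated cells, so Smarca2 made up 54.7 ± 1.44% (SD, n = 2) of their summed FPKM in resting and 28.9 ± 9.43% in activated cells. The ratio of Smarcc1 to Smarcc2 went from -1.38 and -1.14 to -0.22 and 0.20, and the Smarcc1 share from 28.4 ± 2.41% to 49.9 ± 5.33%. Both shifts were toward the pair Smarca4 and Smarcc1, although Smarca4 itself was not called. Kdm6b to Kdm6a shifted by -1.30, from -0.11 and -0.58 to -1.36 and -1.91. Kdm5a to Kdm5c shifted by -0.73, Kdm4a to Kdm4b by 0.65, Ep300 to Crebbp by 0.42, Hdac1 to Hdac2 by -0.34, Kat2a to Kat2b by 0.29 and Smarcd1 to Smarcd2 by 0.28. The remaining pair, Smarca5 to Smarca1, shifted by 0.49, but Smarca1 was nearly absent and the sign turned with a smaller pseudocount (-0.06), so this ratio depends on values of Smarca1 near 0.

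**Figure D3:**
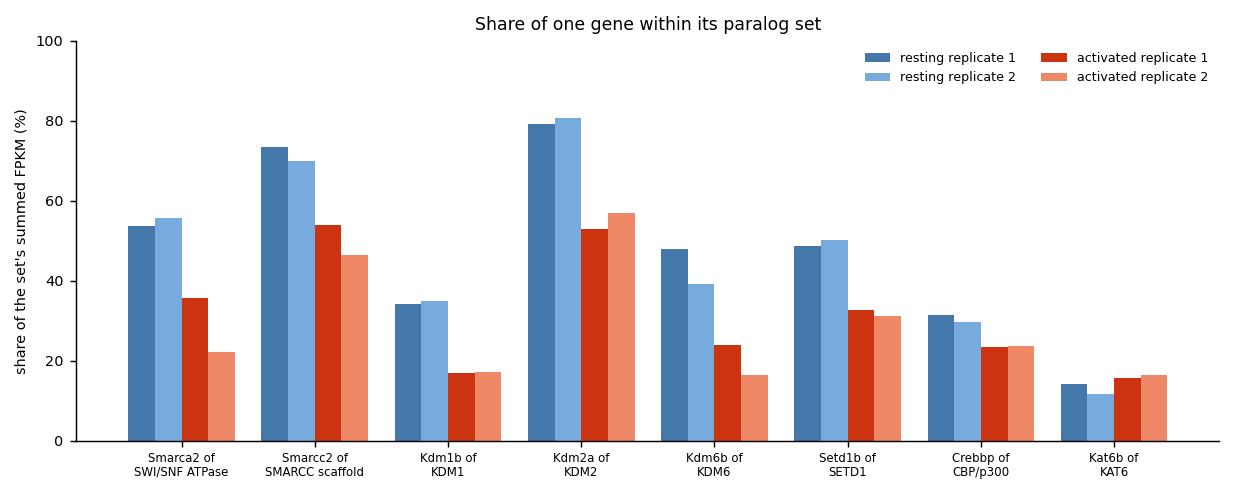
Share of 1 gene in the summed FPKM of its paralog set, in percent, with 1 bar for each of the 4 samples and the sets named under the bars. The drawn gene of each set was picked after its values were seen, and the share of Smarca2 lies between 53.7% and 55.7% in resting and between 22.2% and 35.6% in activated samples.

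Further sets, taken by shared name after the values were seen, show the same kind of shift in share. Kdm1a was 65.5 ± 0.629% (SD, n = 2) of the KDM1 sum in resting and 82.9 ± 0.214% in activated cells, while that sum changed little, from 22.4 to 25.3 FPKM. Kdm2a fell from 80.0 ± 1.02% to 54.9 ± 2.89% of the KDM2 sum, and Setd1a rose from 50.6 ± 0.979% to 68.1 ± 1.04% of the SETD1 sum. In the KAT6 set the share of Kat6b moved only from 12.9 ± 1.67% to 15.9 ± 0.493%, both members fell, and the sum went from 35.2 to 17.3 FPKM.

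Partners and relatives of these enzymes outside the 67 were counted over 9 lists. Of 128 tested, 29 rose and 33 fell (48.4% called, against the 54.4% of all tested genes). In the list drawn up for the complexes that methylate H3K4, which also held the SET-domain genes Ash1l and Mll5, 5 of 12 fell and 3 rose. The 5 that fell were the SET-domain genes Mll2 by 1.44 (limma adjusted p = 0.000493), Mll3 by 1.38 (adjusted p = 0.000567), Ash1l by 1.14 (adjusted p = 0.00187), Mll1 by 0.70 and Mll5 by 0.54. The catalytic gene Wbp7 differed by -0.03 (adjusted p = 0.865, limma). Of the core subunits that the H3K4 methyltransferase complexes share, Ash2l and Dpy30 rose by 0.68 and 0.64 (limma adjusted p = 0.00981 and 0.043), and Rbbp5 (-0.04) and Wdr5 (0.41) did not pass. In the other lysine methyltransferases 5 of 17 rose, including Smyd2 (by 2.15), Whsc1 (an H3K36 methyltransferase, by 1.63) and the H3K9 enzymes Suv39h1 and Suv39h2 (by 1.4 and 1.46), and 4 fell. Among the other SWI/SNF subunits 3 of 13 rose and 3 fell. Phf10, a subunit of the PBAF form, went from 9.98 and 9.69 FPKM to 69.3 and 71.2, a rise of 2.72 (limma adjusted p = 6.48e-05), and the DNA-binding subunits Arid1a and Arid1b fell by 0.62 and 0.65. The deacetylase complexes had 6 rises, led by the histone chaperone Rbbp7 (by 1.53), and 5 falls, led by the NuRD ATPase Chd3 (by 1.41), of 21. The list of acetyltransferase partners had 6 rises and 4 falls of 20, with Tada2a, a partner of Kat2a and Kat2b, highest at 1.34. This list also held the acetyltransferase genes Hat1 and Naa50, which rose by 1.16 and 0.86. Of the other demethylases 1 of 9 rose and 3 fell, with Jhdm1d lowest at -1.99, and of the other bromodomain genes 4 of 19 rose and 3 fell, with Brwd1 going from 50.9 and 47.5 FPKM to 6.25 and 4.97, a fall by 2.93 (limma adjusted p = 6.48e-05). Of the other remodellers 1 of 10 rose, which was Hells by 2.86, and 5 fell, 4 of them of the CHD family. Of the 7 sirtuins, which are deacetylases that use NAD, only Sirt7 was called, and it fell by 0.89.

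The maps of activated cells were read at each gene span extended by 5 kb on both sides, with 1 peak list for each mark and no replicates. Of the 64 tested members 95.3% had a FAIRE peak, 71.9% a STARR peak, 93.8% an H3K27ac peak and 96.9% an H3K4me3 peak, and over all tested genes the shares were 94.8%, 66.9%, 91.2% and 92.4%. The members' spans were longer, with a median of 42.4 kb against 19.97 kb, and the part of span length in these shares was not tested. An H3K4me3 peak lay within 1 kb of a gene end in 85.9% of tested members and 88.5% of all tested genes. In 48.4% and 49.8%, a STARR peak also lay within 1 kb of the same end. By direction of the RNA difference, all 8 that rose had a FAIRE peak and 7 had a STARR peak, and of the 18 that fell 16 had a FAIRE peak (88.9%) and 12 a STARR peak (66.7%). All called genes showed the same order, with a FAIRE peak in 96.6% of those that rose and 89.8% of those that fell, and a STARR peak in 69.1% and 62.0%. The lists read here are of activated cells only, so they hold no comparison with resting cells. H3K27ac was also mapped in resting cells, but that map was not analysed here. The widest cover was at Kdm2b, with 16 FAIRE, 9 H3K27ac and 5 H3K4me3 peaks but 1 STARR peak, and at Hdac9, the longest span at 869 kb, with 14 FAIRE and 13 H3K27ac peaks.

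Peaks were present in activated cells at the genes that fell most. With the 5 kb on both sides included, Kdm6b held 7 FAIRE, 4 STARR, 3 H3K27ac and 3 H3K4me3 peaks. Hdac10, whose own span is 5.40 kb, held 3 FAIRE, 2 STARR, 3 H3K27ac and 2 H3K4me3 peaks in its extended span. Such a window can also hold peaks of a neighbouring gene. Smarca2 held 7 FAIRE, 2 STARR, 3 H3K27ac and 3 H3K4me3 peaks. Crebbp, Kat6a and Setd2 held no STARR peak within 5 kb, although each had FAIRE peaks, and Hdac11 held neither a STARR nor an H3K27ac peak but had 3 FAIRE peaks and 1 H3K4me3 peak. In its paralog pair, Ep300 had 5 FAIRE peaks and 1 STARR peak where Crebbp had 3 and none. Kdm8 and Kdm5d were the only members without a peak of any of the 4 kinds within 5 kb. The nearest FAIRE peak to Kdm8 lay 7.66 kb away, and for Kdm5d the whole Y chromosome held 3 FAIRE peaks.

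Hi-C contacts were counted at a member where an anchor of the deposited contact list overlapped its gene span. The list was deposited as a filtered set of enhancer and promoter contacts pooled over replicates, so a link to an enhancer is partly a condition for being listed. Of the 67 members 54 had at least 1 contact, with 317 contacts in all, and among the tested members 82.8% had one, with a median of 4, against 79.0% and a median of 3 over all tested genes. The list gives many places more than once, at window sizes of 0.5, 1, 2 and 5 kb. When listed contacts whose anchors overlapped at both ends were merged, a rule added after seeing the data, 317 became 267 at members and 27903 became 23578 in all, the same 54 members had one, and the medians were 3.5 and 3. Counts below are of listed contacts, with the merged number beside those that are compared. The members' listed contacts spanned a median of 375 kb and those of the whole list 371 kb, with a median of 6 and 7 reads per contact. The 5 members on the X chromosome (Hdac6, Hdac8, Kdm5c, Kdm6a and Smarca1) had none, but the X chromosome holds only 137 of the 27903 contacts, and 39.3% of its tested genes had a contact. The acetyltransferases, SET-domain and Brd genes all had at least 1 contact each, against 6 of the 11 deacetylases, 10 of the 14 SMARC genes and 13 of the 17 demethylases.

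**Figure D4:**
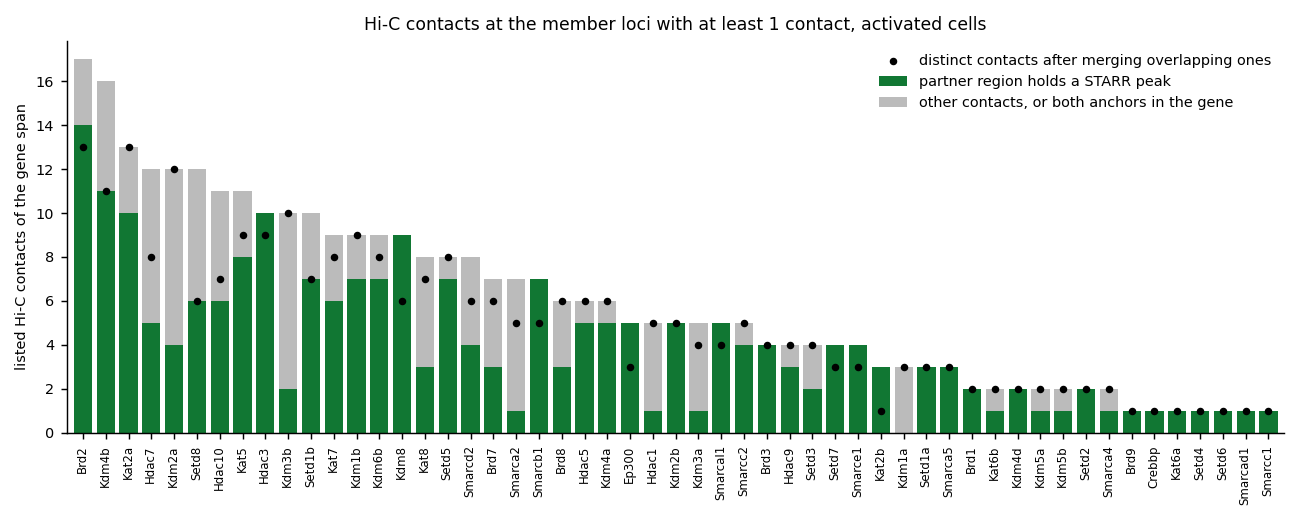
Number of Hi-C contacts in activated cells at 53 of the members that had at least 1, ordered by the listed count on the vertical axis. Black points give the count after merging, green marks contacts whose other anchor holds a STARR peak, grey marks the rest, and Brd2 leads with 17 listed contacts, 14 of them green, but shares the highest merged count of 13 with Kat2a.

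Brd2 (chr17:34248963-34259552), which lies in the major histocompatibility complex, had the most listed contacts, 17, which merged to 13. Of the 13 merged contacts 9 were under 200 kb long, and in 10 the other anchor held a STARR peak. Its partners included the class II antigen presentation genes H2-Oa, H2-DMb1, H2-Aa and H2-Eb1. RNA of all 4 fell in activated cells, for H2-DMb1 from a mean of 119 to 24.6 FPKM (limma adjusted p = 0.000268) and for H2-Aa from 3351 to 894 (adjusted p = 0.00226), while Brd2 itself did not pass the test. Macrophages also present antigen, and their marker sums fell in the same samples, as given above. Brd2 was also the only member at a super-enhancer, a long domain of H3K27ac: the domain at chr17:34254991-34260668 is 5.68 kb long, 4.56 kb of it inside the gene, and holds 1 STARR peak. Kdm4b had 16 listed contacts (11 merged), the strongest with 52 reads to Plin3, 31.4 kb away. Kat2a had 13 (13 merged, as many as Brd2), including 1 of 34 reads to Stat3, 233 kb away, whose RNA did not pass the test (limma adjusted p = 0.45).

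Kdm2a, Hdac7 and Setd8 had 12 listed contacts each, which merged to 12, 8 and 6. For Kdm2a 10 of the 12 were longer than 1 Mb and none had more than 9 reads, whereas 3 of the 6 merged contacts of Setd8 were under 200 kb, with up to 101 reads. Its partners Rilpl2 and Tmed2, reached by 1 merged contact each (3 and 4 listed), also rose, Rilpl2 from a mean of 23.4 to 223 FPKM (limma adjusted p = 6.65e-05) and Tmed2 from 18.9 to 64.1 (adjusted p = 0.000704). Hdac7 reached Endou and Fkbp11 by 1 merged contact each (3 and 2 listed), and both partners rose more than 3 units on the log2 scale (3.34 and 3.06). Over all members 226 tested genes lay at a partner anchor, and 126 of them (55.8%) were called, close to the 54.4% of all tested genes. Smarca2 had 7 listed contacts (5 merged), none under 200 kb, and 1 merged contact of 5 to 6 reads led to Cd274, 2722 kb away (PD-L1, an immune checkpoint ligand), which fell from a mean of 25.1 to 10.6 FPKM (limma adjusted p = 0.00556). Ep300 had 5 listed contacts, which merged to 3 with 1 of them to Rbx1, and Crebbp a single contact of 5 reads. Kdm8, which had no peak of its own, had 9 listed contacts (6 merged), 2 of the merged ones to Il21r, the receptor of interleukin-21, and in all 9 the other anchor held a STARR peak. Members were linked to each other in 2 places: Kdm2b to Setd1b over 241 kb with 5 reads, and Setd1a to Kat8 over 134 kb with 9 reads.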

How the data were processed

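RNA-seq of 2 resting and 2 activated samples and the peak and contact lists of activated cells were used. The submitters' processing notes name Bowtie, Bowtie2, HOMER, STAR, TopHat2 and bedtools and the build mm9, with no role or version. The RNA values deposited by the authors were treated as FPKM: no header or label names the unit, but the values are not whole and their sums differ, so the count tests planned for whole reads did not apply. Per the labels, the FAIRE and ChIP-seq lists stand under replicate 1 whereas STARR runs of 12 h and 24 h share a single list; the lists hold coordinates without a score. The deposited contact list gives a read count and, per the file header, a z-score; the counts were kept as deposited and the deposited score was not used. H3K4me1, nascent RNA and resting ChIP-seq were not analysed here.

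The whole table was fitted with limma 3.58.1 (R 4.3.3, options trend and robust, no block) on log2(FPKM + 1), keeping genes of at least 1 FPKM in 2 or more samples, and the code was tested on simulated data. Fold changes on this scale understate changes of low genes. Gene rows include 265 symbols on more than 1 row and 27 symbols turned into dates, which stayed in the counts. The spans of 7 members overlap another gene, and no strand is given. The members, classes, pairs and lists were chosen with earlier results of these data known. Named were Ep300 and Crebbp, the members of the paralog pairs, up to 4 called rises and 4 called falls per class without overlap, untested members, and at loci the members with the most contacts or a super-enhancer; other members were named after their values were seen. A member, its paralog ratios and the shares that need it are not reported here, though it stays in the counts. Partners and relatives were named from the extremes of each list, also after their values were seen. A peak was counted at a gene with at least 1 base of overlap with its span extended by 5 kb. Merging of overlapping contacts was added after seeing the data. Alternatives covered the pseudocount, filter, scaling, model, threshold, block, each sample left out, the window and the contact rule.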

Additional observations from a re-analysis of the deposited data

How the results depend on the processing

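The counts of calls were lowest when either resting sample was left out. Leaving out 1 sample at a time gave 10 to 25 called members (26 with all), 2964 to 5693 called genes overall (5910 with all) and 31 to 59 called relatives (62 with all). An adjusted p under 0.01 left 15 members, 3714 genes and 36 relatives. A pseudocount of 0.1, no filter, another filter, median-ratio scaling, scaling to equal sums and limma without trend and robust gave 20 to 27 members, 5618 to 6032 genes and 52 to 67 relatives. No called member turned its sign in any of the 12 alternative fits; 8 members that were not called did. Without the filter on low values 6 calls were lost, those of Ep300, Kat6b, Kdm3a, Kdm4b, Kdm5d and Smarca5; without activated replicate 1 Hdac2, Kdm5b, Kdm5c and Smarca4 were gained. The ratio of Smarca5 to Smarca1 turned to -0.058 with a pseudocount of 0.1. Same-numbered samples deviated together with r = 0.124 over 10863 genes, but with only 2 pairs and no label for a shared origin the numbers do not pair the samples; a replicate block gave 28 members (10 higher, 18 lower, with Hdac2 and Smarcb1 added), 6281 genes and 67 relatives.

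At the loci, 32 members held a STARR peak without the extension of the span, 47 with 5 kb and 54 with 20 kb. With 20 kb, 66 members held a FAIRE peak (63 with 5 kb) and 65 an H3K27ac peak (62 with 5 kb). Counting a peak only when most of it lay inside, STARR peaks limited to FAIRE peaks, and the other contact rules changed these counts by at most 3. Merging overlapping contacts took the members' contacts from 317 to 267. DESeq2 and edgeR were not run, since no file holds read counts per gene. Absolute depth is unknown, so no limit from counting error can be given for a low value.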
